A study of Mus musculus with 6 samples.

Results

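The 10 genes described here are imprinted genes with known roles in embryonic growth, namely *Igf2*, *H19*, *Meg3*, *Dlk1*, *Peg3*, *Cdkn1c*, *Grb10*, *Mest*, *Plagl1* and *Kcnq1ot1*. They were taken by symbol from the 32286 features of the count matrices, and all 10 were found and passed the filter on low counts. They were followed in 6 single-cell RNA-seq (scRNAseq) libraries of "Digits in a Dish" (DID) cultures, in which dissociated mesenchyme of the distal forelimb bud of CD-1 mouse embryos at E11.5 is plated at high density and forms digit-like cartilage. A pair of independent cultures, replicates A and B, was collected on Day 2, Day 7 and Day 10 of culture. All cultures were untreated, wild type and grown in medium with 10% fetal bovine serum, and tissue of several embryos was pooled before plating, so a replicate is a culture and not an animal. The groups are labelled by day of culture, and a batch that goes with the day cannot be told apart from it.

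An imprinted gene is expressed mainly from the allele of a single parent, and the expressed allele is set by DNA methylation that was laid down in the egg or the sperm. Many imprinted genes of the embryo act on growth. Paternally expressed members such as *Igf2*, *Dlk1*, *Peg3*, *Mest* and *Plagl1* are mostly linked to growth or to the maintenance of progenitor cells, and maternally expressed members such as *Cdkn1c* and *Grb10* restrain growth, while *H19*, *Meg3* and *Kcnq1ot1* are long non-coding RNAs. In the developing skeleton *Igf2* promotes growth of cartilage and *Cdkn1c* is needed as chondrocytes leave the cell cycle. These libraries do not tell the parental alleles apart, so imprinting itself was not measured.

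Several members are neighbours on chromosome 7 and chromosome 12, and positions are given in GRCm38. *H19* (7, 142575529 to 142578143, minus strand) and *Igf2* (7, 142650766 to 142666816, minus strand) are 72.6 kb apart. *Kcnq1ot1* (7, 143203458 to 143296549, minus strand) is read from within *Kcnq1* on the other strand, and *Cdkn1c* (7, 143458339 to 143461050, minus strand) follows after 162 kb. *Dlk1* (12, 109452823 to 109463336, plus strand) and *Meg3* (12, 109541001 to 109571726, plus strand) are 77.7 kb apart. *Peg3* (7, 6703892 to 6730431, minus strand) lies at the other end of chromosome 7, head to head with *Usp29*. *Mest* is at 6, 30723547 to 30748465, plus strand, *Plagl1* at 10, 13060504 to 13131694, plus strand, and *Grb10* at 11, 11930508 to 12038683, minus strand.

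The promoters of *Dlk1*, *Meg3* and *Peg3* are shown as those of the 2 members of the chromosome 12 locus and of the member whose pattern over cell classes and days was close to that of *Dlk1*. Each sequence is RefSeq's on GRCm38.p6, runs 5′ to 3′ on the strand of the gene over 300 bases, from 250 before the start to 50 after it, and has every CG, the site of DNA methylation, in capitals.
Dlk1 (chr12:109452573-109452872, plus strand): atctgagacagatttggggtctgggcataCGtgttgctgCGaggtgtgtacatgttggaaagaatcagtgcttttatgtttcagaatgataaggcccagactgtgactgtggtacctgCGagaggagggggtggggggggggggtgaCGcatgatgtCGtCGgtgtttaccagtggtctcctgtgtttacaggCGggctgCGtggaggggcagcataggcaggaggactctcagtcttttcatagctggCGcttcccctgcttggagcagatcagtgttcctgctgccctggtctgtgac
Meg3 (chr12:109540746-109541045, plus strand): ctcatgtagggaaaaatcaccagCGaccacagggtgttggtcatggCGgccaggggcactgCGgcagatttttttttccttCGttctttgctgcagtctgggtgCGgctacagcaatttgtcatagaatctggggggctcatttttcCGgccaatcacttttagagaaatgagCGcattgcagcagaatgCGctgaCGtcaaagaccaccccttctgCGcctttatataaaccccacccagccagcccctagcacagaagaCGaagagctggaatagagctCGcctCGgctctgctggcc
Peg3 (chr7:6730370-6730669, minus strand): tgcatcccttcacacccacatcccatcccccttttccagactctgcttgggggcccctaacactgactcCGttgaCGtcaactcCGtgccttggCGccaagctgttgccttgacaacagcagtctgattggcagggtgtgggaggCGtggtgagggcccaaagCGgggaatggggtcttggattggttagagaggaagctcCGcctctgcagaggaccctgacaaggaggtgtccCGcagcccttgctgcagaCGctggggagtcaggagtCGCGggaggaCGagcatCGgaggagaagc
The promoters of *Dlk1*, *Meg3* and *Peg3* hold 9, 13 and 13 CG, against a median of 7 over the 32851 promoters of the table. The palindrome GGGGCCCC, known as a binding sequence of the PLAGL1 protein, is in 1.08% of all promoters and, among the 15 entries of 8 members, in that of *Peg3* alone, 201 bases before its start. TGACGTCA, the palindrome bound by CREB and ATF proteins, is in 1.79% of all promoters and in those of *Peg3* and *Meg3*, 178 and 57 bases before the start. Each motif reads the same on both strands and they do not overlap, and a match describes the letters only.

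*H19* and *Meg3* are also the host transcripts of microRNAs, which counting of polyadenylated RNA does not measure. Their mature RefSeq sequences are shown with the seed, bases 2 to 8, in capitals, because microRNAs are known to act on other RNAs.
mmu-miR-675-5p (chr7:142577112-142577133, minus strand): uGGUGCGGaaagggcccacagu
mmu-miR-675-3p (chr7:142577078-142577099, minus strand): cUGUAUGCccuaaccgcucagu
mmu-miR-770-5p (chr12:109563710-109563731, plus strand): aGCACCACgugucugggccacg
mmu-miR-770-3p (chr12:109563744-109563765, plus strand): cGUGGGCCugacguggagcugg
The first pair lies in *H19* and the second in *Meg3*, and the 4 seeds differ from each other.

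Depth was similar in total, with 178022112 to 260245417 UMIs (counted RNA molecules) per library in 9448 to 16486 cells that passed the filters, but not per cell. A cell of Day 2 had a median of 18587 UMIs in replicate A and 3871 in replicate B, a cell of Day 7 had 8062 and 9337 and a cell of Day 10 had 24197 and 22128, and 41.4% of the cells of Day 2 replicate B had under 3000 UMIs. The median mitochondrial share of a cell was 1.85% and 2.17% on Day 2 and 3.96% and 3.60% on Day 10, and the study's upper limit for a cell was itself 25% on Day 2, 30% on Day 7 and 40% on Day 10. Between 24 and 67 cell barcodes were shared by any pair of libraries, at most 0.543% of the smaller library.

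The first question was how the members change as the cultures age. UMIs were summed over the cells of each library and expressed as CPM, the count scaled to a common library size, with TMM factors, which correct for a few abundant genes, and days were compared with edgeR with n = 2 libraries per day. On Day 7 against Day 2, 8 of the 10 members were higher at an adjusted p under 0.05, 1 (*Grb10*) was lower and 1 (*Mest*) was not called, where 35.7% of all genes tested were higher and 34.6% lower. On Day 10 against Day 7 none was higher and 9 were lower, where 26.3% of genes were higher and 25.9% lower. On Day 10 against Day 2, 2 were higher and 4 lower, where 39.0% and 38.2% of genes were, so the last counts are not far from the background. The median log2 fold change of the members was 0.64, -0.94 and -0.14 in the 3 comparisons, beside 0.01, -0.02 and 0.00 over all 18987 genes. In sums over a culture, fewer cells of a type and less RNA per cell cannot be told apart.

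**Figure D1:**
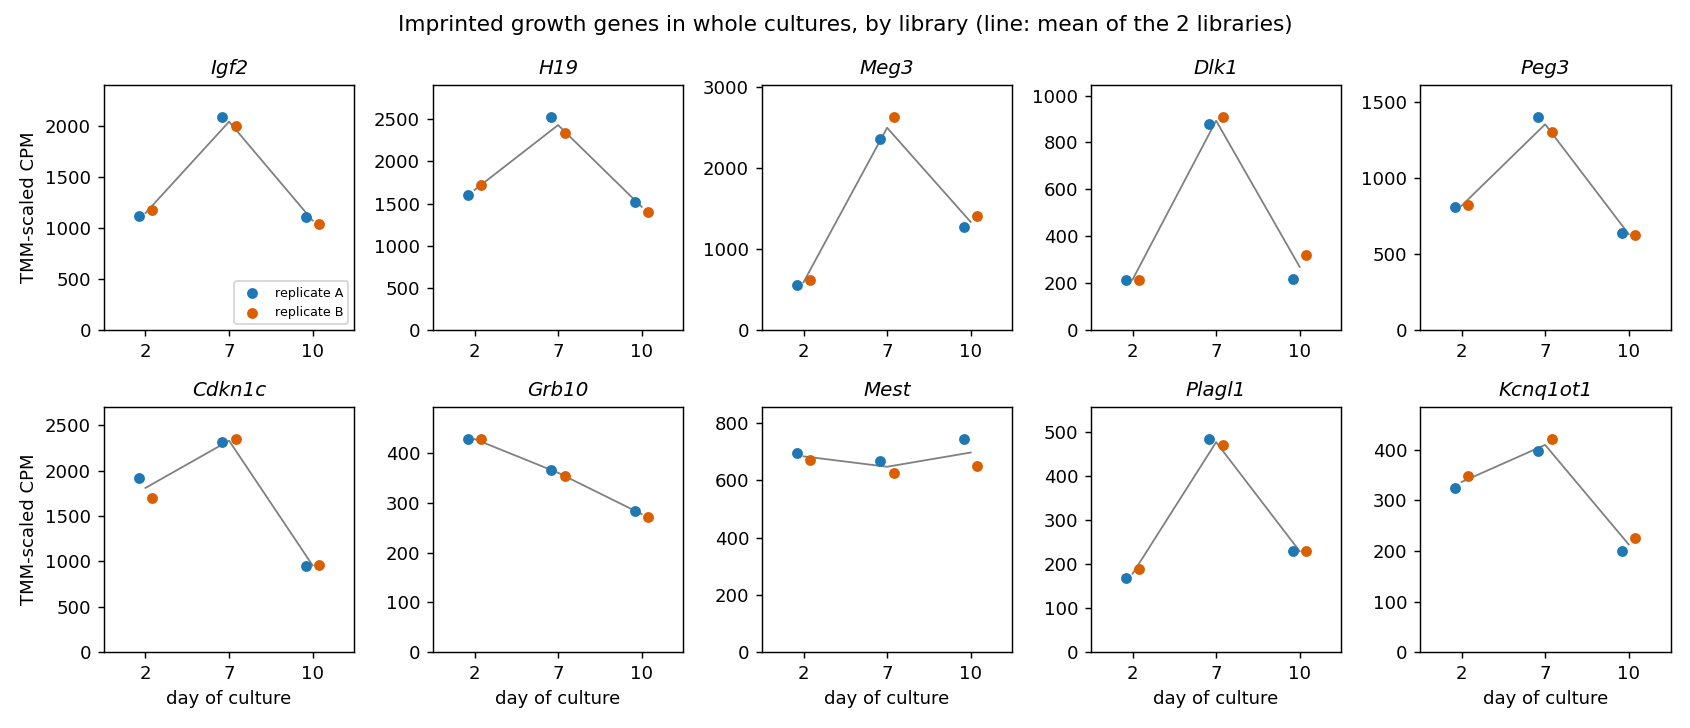
TMM-scaled CPM of the 10 members in whole cultures by day of culture, with 1 point per library (replicate A blue, replicate B orange) and a line through the mean of the 2 libraries. *Igf2*, *H19*, *Meg3*, *Dlk1*, *Peg3*, *Plagl1*, *Cdkn1c* and *Kcnq1ot1* had both Day 7 libraries above all others, *Grb10* fell from day to day, and *Mest* stayed between 626 and 744.

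*Igf2*, the fetal insulin-like growth factor, was at 1114 and 1177 CPM in the Day 2 libraries (A and B), 2085 and 1993 on Day 7, and 1103 and 1041 on Day 10. Both Day 7 libraries were above the other 4, and Day 2 and Day 10 did not overlap but lay close together. The rise by Day 7 was 0.83 ± 0.07 on the log2 scale (SE, adjusted p = 7.9e-06), the fall by Day 10 was -0.93 ± 0.07 (adjusted p = 3.31e-05), and Day 10 differed from Day 2 by -0.10 ± 0.07 (adjusted p = 0.235). When only cells with at most 5% mitochondrial UMIs were summed, *Igf2* was lower on Day 10 than on Day 2 (-0.38, adjusted p = 0.00053), and with every cell weighted equally the difference was 0.20 (limma, adjusted p = 0.228).

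*H19*, the non-coding neighbour of *Igf2*, followed the same course at 1597 and 1725 CPM, then 2527 and 2334, then 1518 and 1406. The Day 7 libraries were again the highest 2. Its rise was 0.55 ± 0.08 (adjusted p = 0.000252) and its fall -0.73 ± 0.08 (adjusted p = 0.000164), and the difference of -0.18 between Day 10 and Day 2 missed the threshold (adjusted p = 0.0586), although without Day 2 replicate A it was -0.23 (adjusted p = 0.0183). The ratio of *H19* to *Igf2* UMIs was 1.43 and 1.47 on Day 2, 1.21 and 1.17 on Day 7 and 1.38 and 1.35 on Day 10. In cells with at most 5% mitochondrial UMIs it was 1.45 and 1.49, then 1.43 and 1.33, then 1.71 and 1.63, so that Day 10 lay above Day 2 and not below it.

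*Dlk1*, a membrane protein of the Delta family that holds back differentiation of several progenitors, went from 215 and 216 CPM on Day 2 to 877 and 909 on Day 7, and was at 219 and 321 on Day 10. The log2 fold change was 2.05 ± 0.15 (adjusted p = 3.41e-06) and then -1.73 ± 0.15 (adjusted p = 5.83e-05). The Day 10 libraries differed more than those of the other days, and the difference between Day 10 and Day 2, 0.32 (adjusted p = 0.0684), was 0.59 (adjusted p = 0.000294) without Day 10 replicate A.

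*Meg3*, the maternally expressed non-coding RNA downstream of *Dlk1*, was at 562 and 623 CPM on Day 2, 2363 and 2630.3 on Day 7 and 1267 and 1403 on Day 10. It rose by 2.08 ± 0.09 (adjusted p = 1.73e-07) and fell by 0.90 ± 0.09 (adjusted p = 0.000108), and it was the member with the largest difference between Day 10 and Day 2, at 1.17 ± 0.09 (adjusted p = 3.06e-06). Cells with a high mitochondrial share, given below, had more *Meg3* and were more common on Day 10. Days were also compared in cells with at most 5% mitochondrial UMIs, but the fold changes of *Meg3* there are not given. How much of its changes went with the cells of high share was not tested further. The nuclear RNA *Neat1* was at 41.3 and 51.4 CPM without TMM scaling, then 239 and 234, then 232 and 224. *Malat1* was at 13433 and 15540, then 18767 and 19646, then 16595 and 19981. The ratio of *Meg3* to *Dlk1* UMIs was 2.61 and 2.88 on Day 2, 2.69 and 2.89 on Day 7, and 5.79 and 4.37 on Day 10. In cells with at most 5% mitochondrial UMIs it was 2.53 and 2.74, then 2.22 and 2.12, then 4.52 and 3.05. With every cell weighted equally, the fall of *Meg3* from Day 7 to Day 10 was -0.30 and was not called (limma, adjusted p = 0.309).

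*Plagl1*, a zinc finger transcription factor, was at 168 and 189 CPM, then 485 and 470.1, then 229 and 229.8, a rise of 1.42 ± 0.07 (adjusted p = 2.64e-07) and a fall of -1.06 ± 0.07 (adjusted p = 1.74e-05). *Peg3*, another zinc finger protein, was at 811 and 823 CPM, then 1400.2 and 1303, then 636 and 625, a rise of 0.73 ± 0.06 (adjusted p = 1.14e-05) and a fall of -1.10 ± 0.07 (adjusted p = 1.33e-05). Both were highest on Day 7 without overlap, and *Peg3* ended below and *Plagl1* above its Day 2 level. Without TMM scaling *Plagl1* was at 188 and 216 CPM on Day 2 and 215 and 219 on Day 10, which overlapped.

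*Cdkn1c*, which encodes the cyclin-dependent kinase inhibitor p57, was at 1919 and 1699 CPM on Day 2, 2310.2 and 2347 on Day 7 and 951 and 959.6 on Day 10. The change by Day 7 was small (0.36 ± 0.08, adjusted p = 0.00236) and was -0.24 (limma, adjusted p = 0.169) with every cell weighted equally, and the fall by Day 10 was -1.29 ± 0.08 (adjusted p = 1.42e-05). *Kcnq1ot1*, the non-coding RNA of the same domain, moved likewise, from 324 and 349 to 398 and 422 and then to 199.7 and 226, with -0.94 ± 0.08 (adjusted p = 4.13e-05) for the last step, which was -0.26 and not called with every cell weighted equally (limma, adjusted p = 0.389). Without TMM scaling, *Cdkn1c* was at 2157 and 1941 CPM on Day 2 and 2165 and 2176 on Day 7. Without it *Kcnq1ot1* was at 365 and 398 and then 373 and 391, so its Day 2 and Day 7 libraries overlapped. Its first step of 0.28 (adjusted p = 0.00829) was -0.0066 (adjusted p = 0.927) when only cells with at most 5% mitochondrial UMIs were summed, and 0.25 (adjusted p = 0.0655) without Day 7 replicate B.

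*Grb10*, an adaptor that dampens insulin and IGF receptor signalling, was the member that declined at both steps. It was at 428 and 428 CPM, then 366 and 355, then 283 and 272, with -0.25 ± 0.06 (adjusted p = 0.00332) and -0.38 ± 0.06 (adjusted p = 0.000731). The first step was -0.22 (adjusted p = 0.0652) without Day 7 replicate B. *Mest*, a member of the alpha/beta hydrolase family, was at 695 and 672, 669 and 626, and 744 and 649.6 CPM in the 6 libraries, with Day 7 just below Day 2 and Day 10 overlapping Day 2. No comparison of *Mest* was called in whole cultures (adjusted p = 0.393, 0.281 and 0.756). Without TMM scaling *Mest* was at 781 and 768, then 627 and 580, then 700 and 618 CPM, with both Day 2 libraries above all others.

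The next question was whether these courses were those of the cartilage cells. Cells were clustered within each day with the members left out of the clustering, and clusters were called chondrocyte-like from markers such as *Col2a1*, *Acan*, *Matn1* and *Hapln1*. The class held 3563 and 2568 cells on Day 2, 4159 and 3857 on Day 7, and 3250 and 2964 on Day 10, in 4, 5 and 6 clusters. Its median mitochondrial share was 1.88% and 2.27% on Day 2 and 4.37% and 6.68% on Day 10. On Day 7 against Day 2, 8 members were higher and 2 lower in the class (background 37.4% higher and 39.0% lower of 16500 genes), and on Day 10 against Day 7 none was higher and 7 were lower (20.9% and 21.0%). On Day 10 against Day 2, 7 were higher and 2 lower (39.3% and 39.3%). In all other cells, summed as a single group, 4 were higher and 2 lower on Day 7 against Day 2 (33.3% and 31.2% of 18085 genes), 1 was higher and 8 lower on Day 10 against Day 7 (26.0% and 25.2%), and 2 were higher and 7 lower on Day 10 against Day 2 (37.5% and 36.8%).

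**Figure D2:**
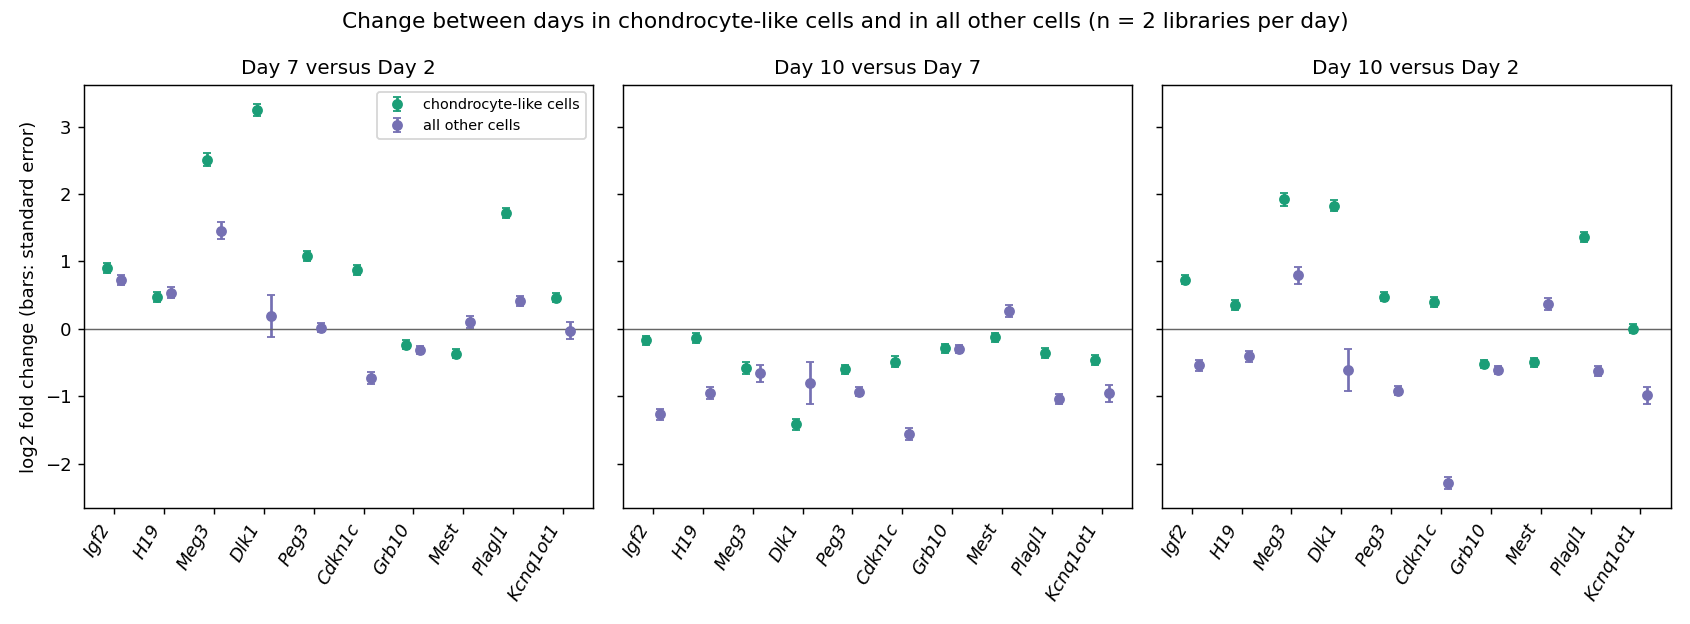
Log2 fold change between days (points) with its standard error (bars) for each member, in chondrocyte-like cells (green) and in all other cells (violet), 1 panel per comparison, n = 2 libraries per day. On Day 10 against Day 2 the green points of *Igf2*, *H19*, *Dlk1*, *Peg3*, *Cdkn1c* and *Plagl1* are above 0 and the violet points below, and those of *Mest* are the other way round.

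*Cdkn1c* in chondrocyte-like cells was at 2236 and 2055 CPM on Day 2, 3881 and 4006 on Day 7 and 2742 and 2895 on Day 10, a rise of 0.88 ± 0.08 by Day 7 (adjusted p = 5.23e-08) and a level on Day 10 still 0.39 ± 0.07 above Day 2 (adjusted p = 0.000211). In the other cells it was at 1733 and 1519 CPM, then 940.3 and 1024, then 326 and 339, which is -0.73 ± 0.08 by Day 7 (adjusted p = 0.00012) and -2.29 ± 0.09 by Day 10 (adjusted p = 1.95e-07). The class held 37.7% and 15.6% of the cells on Day 2 and 30.8% and 31.2% on Day 7. Without TMM scaling, the Day 2 and Day 10 libraries of the class overlapped in *Cdkn1c*.

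*Dlk1* in chondrocyte-like cells was at 162 and 183 CPM on Day 2, 1576 and 1695 on Day 7 and 579.8 and 643 on Day 10. The rise of 3.25 ± 0.09 (adjusted p = 1.08e-13) was the largest of any member in the 3 comparisons of the class. In the other cells *Dlk1* was at 245 and 234 CPM, then 268 and 281, then 93.0 and 220.3, and no step was called (adjusted p = 0.603 and 0.0605).

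*Plagl1* in chondrocyte-like cells was at 234 and 271 CPM, then 837 and 821, then 637 and 660.3, and was 1.36 ± 0.08 higher on Day 10 than on Day 2 (adjusted p = 2.68e-10). In the other cells it was at 129 and 146, then 177 and 190.1, then 86.8 and 92.2, and ended -0.62 ± 0.08 below Day 2 (adjusted p = 0.0001). *Peg3* went from 959 and 1018 to 2136 and 2048 and to 1400.1 and 1355 CPM in the class, and stood at 725 and 724, 758 and 711, and 373 and 395 outside it. Its Day 7 peak was therefore seen in the chondrocyte-like cells (1.08 ± 0.07, adjusted p = 2.17e-09) and was not detectable in the rest (0.02 ± 0.07, adjusted p = 0.806).

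*Igf2* and *H19* rose by Day 7 on either side, by 0.90 and 0.48 in the class and by 0.73 and 0.54 outside. The 0.48 of *H19* in the class depends on TMM scaling, and without it the Day 2 and Day 7 libraries overlapped. The class and the other cells parted later. In chondrocyte-like cells *Igf2* was at 2347 and 2273 CPM on Day 7 and 2086 and 2012 on Day 10 (-0.17 ± 0.07, adjusted p = 0.0567, and -0.26 with adjusted p = 0.00477 in cells with at most 5% mitochondrial UMIs). The 6 chondrocyte-like clusters of Day 10 are given in CPM without TMM scaling, so their values do not compare directly with those of the class. Of these, 3 had a median mitochondrial share of 10.9% to 27.6% and *Igf2* at 2927 to 5647 CPM over both replicates, and 3 had 2.60% to 3.52% and *Igf2* at 1310.0 to 1646 CPM. Without Day 2 replicate A or B, the step of *Igf2* in the class was -0.17 with adjusted p = 0.0214 or 0.0203. In the other cells it went from 1855 and 1777 to 768 and 739 (-1.27 ± 0.08, adjusted p = 4.27e-05). *H19* did the same, with -0.13 ± 0.07 (adjusted p = 0.181) in the class and -0.95 ± 0.09 (adjusted p = 0.000189) outside.

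*Meg3* rose in both groups of cells by Day 7, by 2.51 ± 0.10 (adjusted p = 5.17e-12) in the class and 1.46 ± 0.13 (adjusted p = 2.38e-05) outside it, and *Grb10* fell in both at every step. By Day 7 the nuclear RNAs *Neat1* and *Malat1* also rose in the class, by 2.58 (adjusted p = 2.74e-11) and 0.55 (adjusted p = 0.000255). The median mitochondrial share of the class was 2.99% and 2.88% on Day 7. The part of either in the rise of *Meg3* was not tested. *Mest* in chondrocyte-like cells went from 920.1 and 883 CPM on Day 2 to 657 and 619.9 on Day 10 (-0.50 ± 0.07, adjusted p = 6.7e-06), and in the other cells from 565 and 564 to 785 and 670.1 (0.37 ± 0.09, adjusted p = 0.00484). *Kcnq1ot1* was at 379.9 and 403 CPM on Day 2 and 369 and 415 on Day 10 in the class (0.00, adjusted p = 0.969), and fell by 0.99 ± 0.13 outside it (adjusted p = 0.000155). In cells of the class with at most 5% mitochondrial UMIs the value of *Kcnq1ot1* was -0.45 (adjusted p = 1.99e-05). These are tests between days within each set of cells. The difference between the sets was not tested, because the sets were drawn from the same counts, and the makeup of the other cells changes with the day.

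Across named classes, the levels of the members were ordered differently by gene, here in CPM of the summed UMIs without TMM scaling, for replicates A and B. In tenocyte-like cells *Mest* was at 1034 and 907 CPM on Day 2 and 1128 and 1091 on Day 7, against 1104 and 1069 and then 635 and 598 in the chondrocyte-like cells. Myocyte-like cells of Day 2 had *Cdkn1c* at 5507 and 4476 CPM, above the 2682 and 2487 of chondrocyte-like cells, and *Mest* at 317 and 336. Interdigital-like cells of Day 2 were low in *Plagl1* (41.0 and 47.0 CPM) and *Dlk1* (73.7 and 93.2), and had *Cdkn1c* at 1240 and 1266. Joint interzone-like cells of Day 7 had *H19* at 3506 and 3267 CPM, above the 2503 and 2373 of chondrocyte-like cells, at median depths of 8908 and 8008 UMIs against 22999 and 23098, and *Plagl1* at 226 and 197, below their 748 and 719.

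In contractile mesenchyme-like cells, marked by smooth-muscle-type genes, levels were compared by value only. Between Day 2 and Day 10 *Igf2* went from 1087 and 1109.9 to 404 and 440.2 CPM, *Cdkn1c* from 1294 and 1191 to 209 and 223, *Dlk1* from 367 and 358 to 57.7 and 79.7, and *Plagl1* from 152 and 164 to 54.7 and 62.0. *H19* went from 1508 and 1628 to 714 and 750.1, *Peg3* from 759 and 781 to 239 and 281, *Grb10* from 430.3 and 449 to 219.6 and 220.0, *Kcnq1ot1* from 219 and 241 to 87.4 and 95.8 and *Mest* from 691 and 692 to 509 and 461. *Meg3* was the exception, at 602 and 676 on Day 2 and 758 and 750.4 on Day 10. Immune-like cells were used as a comparison for RNA that is free in the droplets, for the members other than *Kcnq1ot1*, which in the immune-like cells of Day 2 replicate A was at 284 CPM, against 365 over all cells and 219 in contractile mesenchyme-like cells. On Day 10 they had *Igf2* at 343 and 309 CPM, *H19* at 463 and 422, *Cdkn1c* at 147 and 142, *Dlk1* at 50.8 and 39.2 and *Plagl1* at 55.1 and 42.6. The Day 10 levels of these 5 genes in contractile mesenchyme-like cells were at most about 2 times those of immune-like cells. The immune-like level was no floor. A contractile mesenchyme-like cluster of Day 10 was below it in *Igf2* (268 and 257), *Cdkn1c* (126 and 119) and *Plagl1* (31.8 and 32.9). *Dlk1* was down to 9.67 and 12.8 in an unnamed cluster. In Day 2 replicate B the immune-like cells had *Igf2* at 1101 CPM, *H19* at 1096, *Cdkn1c* at 969, *Plagl1* at 124 and *Dlk1* at 159. Contractile mesenchyme-like cells of that library were within about 2 times of these values, or slightly above for *Dlk1*. Median depths were unlike, at 4648 UMIs in the immune-like cells and 34350 in the contractile mesenchyme-like cells. Interdigital-like cells of that library were lower, with *Igf2* at 660 and *Plagl1* at 47.0. The part of background in the Day 2 levels was therefore not determined. The 20 immune-like cells of Day 2 replicate A had *Igf2* at 289, *H19* at 428, *Cdkn1c* at 547, *Plagl1* at 67.5 and *Dlk1* at 53.5.

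**Figure D3:**
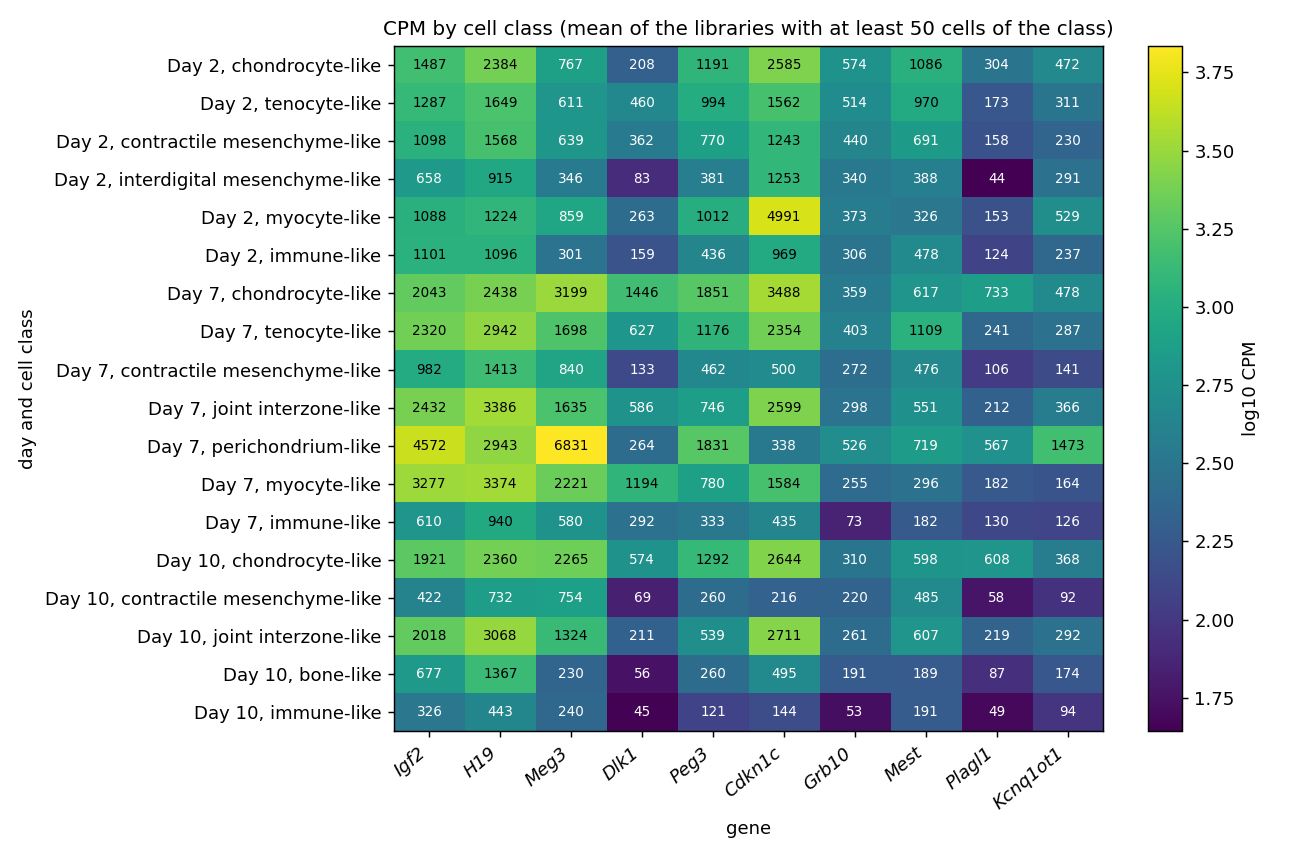
CPM of each member (columns) in each named cell class and day (rows), as the mean of the libraries with at least 50 cells of the class, with the color on a log10 scale. *Cdkn1c* is highest in myocyte-like cells of Day 2, *Dlk1* and *Plagl1* in chondrocyte-like cells of Day 7, and *Igf2*, *Meg3* and *Kcnq1ot1* in the perichondrium-like cells of Day 7, whose median mitochondrial share was 17.8% and 18.8%.

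A small group of Day 10 cells stood apart in *Dlk1*. Cluster 15, left without a name and led by *Msln*, *Sncg*, *Wnt10a* and *Efemp1*, had *Dlk1* at 1660.1 and 2304 CPM in replicates A and B. It held 120 and 319 cells, 1.16% and 3.21% of the library, and 14.5% and 37.3% of the *Dlk1* UMIs. Without it *Dlk1* was at 179 and 201 CPM in the Day 10 replicates, against 206 and 306 CPM with it, so most of the gap between these replicates lay in this cluster. *Dlk1* is itself among the 10 leading genes of the cluster, and the lowest cluster of that day had it at 9.67 and 12.8 CPM.

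The share of cells with a UMI of a member was counted after every cell had been thinned at random to 1000 UMIs, which left out 0 to 205 cells per library. *Dlk1* was seen in 15.6% and 18.0% of cells on Day 2, 36.9% and 34.8% on Day 7 and 10.5% and 12.7% on Day 10, and *Cdkn1c* in 75.2% and 71.8%, 58.7% and 58.3%, and 32.4% and 32.0%. *Igf2* was seen in 67.8% and 76.8%, 86.2% and 85.1%, and 61.3% and 61.3%. In immune-like cells the shares were 15% and 62.1%, 57.9% and 55.6%, and 23.5% and 33.5% for *Igf2*, 5% and 18.9%, 10.5% and 12.7%, and 4.55% and 2.13% for *Dlk1*, and 20% and 67.4%, 36.8% and 22.2%, and 6.82% and 6.38% for *Cdkn1c*. In Day 2 replicate B the immune-like share of *Dlk1* was as high as that of all cells, and those of *Cdkn1c* and *Igf2* were close to it, so these shares cannot be told from background in that library. Immune-like cells numbered 20 to 188 per library, and their median depth was 4648 UMIs in Day 2 replicate B and 17738 to 26786 elsewhere. Unthinned, *Cdkn1c* was seen in 96.5% and 92.3% of cells on Day 2 and 80.8% and 79.1% on Day 10, *Dlk1* in 61.8%, 50.02%, 67.6%, 66.7%, 39.3% and 39.4% of the cells of the 6 libraries, and *Igf2* in 97.8% or more.

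In thinned counts the variance of *Cdkn1c* over cells was 3.1 and 2.09 times its mean on Day 2, 3.29 and 3.49 times on Day 7 and 3.57 and 3.83 times on Day 10, where counting error alone gives about 1. Among the members that ratio was highest for *Meg3* at 6.37 and 8.83 on Day 10, and lowest for *Grb10*, at 1.05 to 1.17 in all 6 libraries, and it grows with the mean, so it does not rank genes by how evenly they are spread. Over the clusters of Day 10, *Grb10* ranged from 50.1 and 55.0 CPM in the lowest to 444 and 448 in the highest, and *Meg3* from 166 and 154 to 7921 and 11000.5. A median of 5 and 5 members was seen per thinned cell on Day 2, 6 and 5 on Day 7, and 4 and 4 on Day 10.

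Cells also differed by mitochondrial share. In cells over 5% mitochondrial UMIs *Kcnq1ot1* was 2.86 to 5.04 times, *Meg3* 2.88 to 4.42 times and *Igf2* 1.40 to 2.31 times its CPM in cells with at most 2% of the same library, in 6 of 6 libraries each. *Dlk1* was at 0.274 to 0.817 times and *Cdkn1c* at 0.319 to 0.859 times, in 6 of 6. The nuclear RNAs *Malat1* and *Neat1* were 1.87 to 5.48 and 2.62 to 4.26 times higher in the same cells. Among cells over 10000 UMIs only, the ratios were 1.61 to 3.26 for *Kcnq1ot1*, 1.84 to 2.95 for *Meg3*, 1.25 to 1.83 for *Igf2* and 0.272 to 0.710 for *Dlk1*, and for *Cdkn1c* 1.17 and 1.20 on Day 2 and 0.451 to 0.544 later. *H19* (0.789 to 1.03), *Peg3*, *Grb10*, *Mest* and *Plagl1* (0.942 to 1.71 over these 4 genes) varied less. Cells over 5% made up 5.20% and 6.81% of the cells on Day 2, 24.3% and 26.7% on Day 7 and 36.6% and 38.4% on Day 10. The part of this shift in the changes between days was not tested beyond the sums of cells with at most 5%. For whole cultures, fold changes of these sums are given for *Igf2* and *Kcnq1ot1* only. Others are given for chondrocyte-like cells. Those of *Meg3* were computed but are not given.

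Depth went with *Igf2*, *Cdkn1c* and *Dlk1* in the same directions, and with *H19*. In cells under 3000 UMIs *Igf2* was 1.57 to 4.19 times its CPM in cells over 10000 UMIs, and *H19* 1.01 to 3.14 times, while *Cdkn1c* was at 0.370 to 0.674 times and *Dlk1* at 0.286 to 0.848 times, in 6 of 6 libraries each. *Meg3* and *Kcnq1ot1* went either way (0.443 to 4.22 and 0.402 to 5.66), as did *Malat1* (0.473 to 4.64). In cells of at least 3000 UMIs the members called in whole cultures on Day 7 against Day 2 and on Day 10 against Day 7 were again 9 and 9. The share of all genes called was not counted in that selection. With all cells kept, it was 35.7% higher and 34.6% lower, and then 26.3% and 25.9%.

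**Figure D4:**
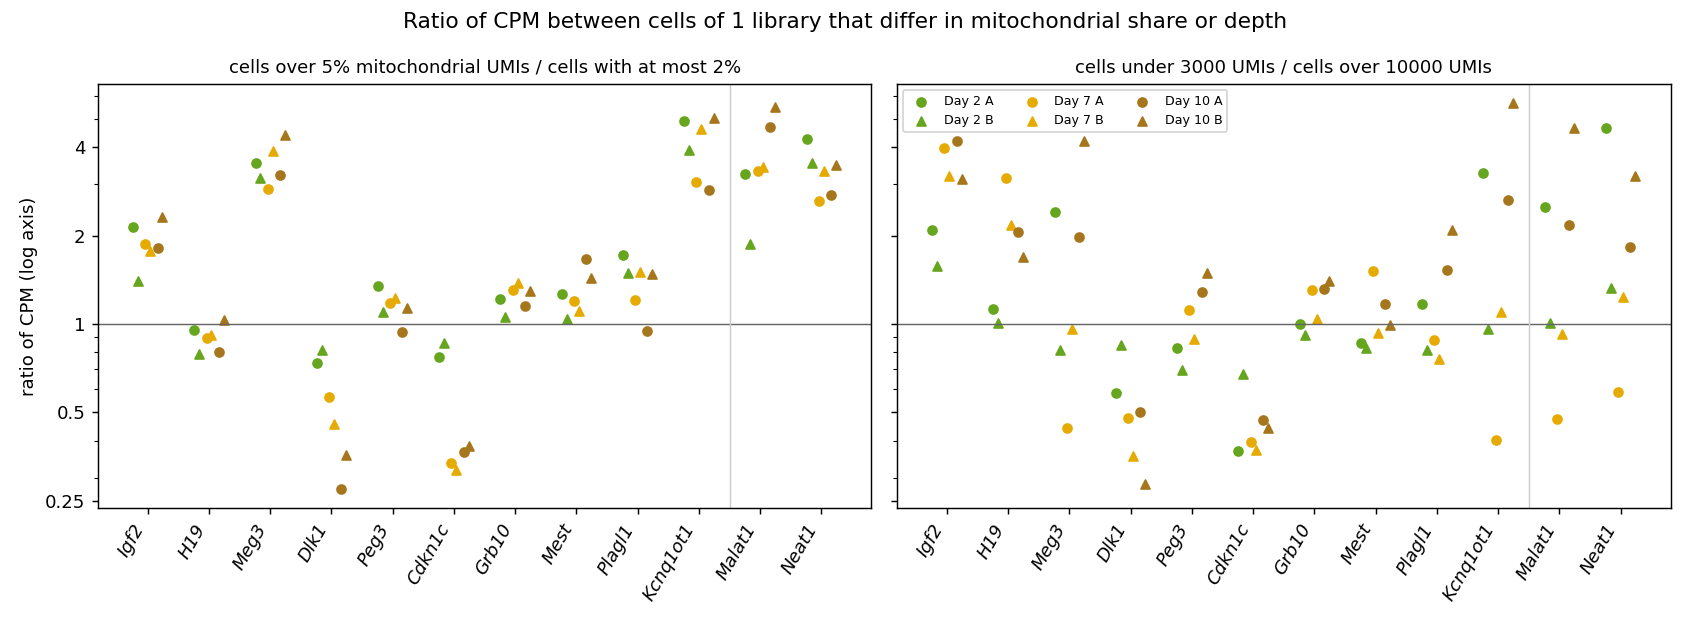
Ratio of CPM (log axis) within each library between cells over 5% and cells with at most 2% mitochondrial UMIs (left) and between cells under 3000 and cells over 10000 UMIs (right), 1 point per library, for the members and the nuclear RNAs *Malat1* and *Neat1*. On the left *Meg3* and *Kcnq1ot1* lie as high as *Malat1* and *Neat1*, and *Dlk1* and *Cdkn1c* lie below 1 in all libraries on either side.

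Dividing cells were those with 3 or more UMIs of a list of cell-division genes after thinning, compared with cells with none. *Cdkn1c* was at 0.434 to 0.797 times and *Peg3* at 0.766 to 0.854 times the level of the cells with none, in 6 of 6 libraries. *Plagl1* was at 0.464 to 0.863 and *Meg3* at 0.366 to 0.868 times, also in 6 of 6, as were *Kcnq1ot1* (0.424 to 0.854), *H19* (0.761 to 0.955) and the nuclear RNA *Neat1* (0.494 to 0.7996), while *Malat1* was at 0.514 to 1.05. *Dlk1* (0.680 to 1.20), *Grb10* (0.835 to 1.05), *Igf2* (0.667 to 1.01) and *Mest* (0.922 to 1.02) lay on both sides of 1. In CPM of the thinned counts *Cdkn1c* was at 1908 against 2548 and 1508 against 1991 on Day 2, 1228 against 1807 and 1469.7 against 1843 on Day 7, and 367 against 802 and 351 against 811 on Day 10. Dividing cells had more UMIs before thinning in 5 of the 6 libraries (3783 against 9567 in Day 2 replicate B).

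The pattern over cell classes and days was compared between genes by Pearson's correlation of log2(CPM + 1) over 39 sums of a class in a library with at least 50 cells, unnamed cells included, among 8327 genes of at least 10 CPM. The sums come from all days, so a shared change with day enters these values as well as a shared pattern over classes. The gene most like *Igf2* was *H19* (r = 0.95), and the reverse. The 3 most like *Meg3* were *Mirg* (0.97), *Rian* (0.97) and *B830012L14Rik* (0.95), which lie after it on chromosome 12. The gene most like *Peg3* was its head-to-head neighbour *Usp29* (0.92), followed by *Plagl1* (0.89), and that most like *Plagl1* was *Peg3*. *Dlk1* was closest to *Nrk* (0.82), *Peg3* (0.77) and *Plagl1* (0.74), with *Meg3* at 0.70. Over single cells thinned to 3000 UMIs (8802 to 9653 cells per library), Spearman's correlation of *Dlk1* with *Meg3* was 0.178 and 0.118 on Day 2, above that with *Peg3* (0.0569 and 0.0202) and *Plagl1* (0.103 and 0.0654). On Day 7 it was 0.366 and 0.253 in all such cells and 0.496 and 0.494 in those with at most 5% mitochondrial UMIs, where *Peg3* was at 0.439 and 0.420 and *Plagl1* at 0.445 and 0.423, so the order of the 3 depends on the cells used. *Cdkn1c* was above these 3 on Day 7, at 0.474 and 0.505 in all such cells and 0.534 and 0.517 in those with at most 5%. On Day 10, in all such cells, *Meg3* was at 0.232 and 0.218, *Peg3* at 0.276 and 0.222 and *Plagl1* at 0.313 and 0.265. Over the class sums, *Cdkn1c* was closest to *C430049B03Rik* (0.85), *Grb10* to *Tlk2* (0.92), *Mest* to *Fam171b* (0.83) and *Kcnq1ot1* to *Ccnt2* (0.91). *Kcnq1ot1* and *Cdkn1c* of the same domain had r = 0.48. The sums of a library share its depth and its background RNA, so these values describe the libraries and carry no test.

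**Figure D5:**
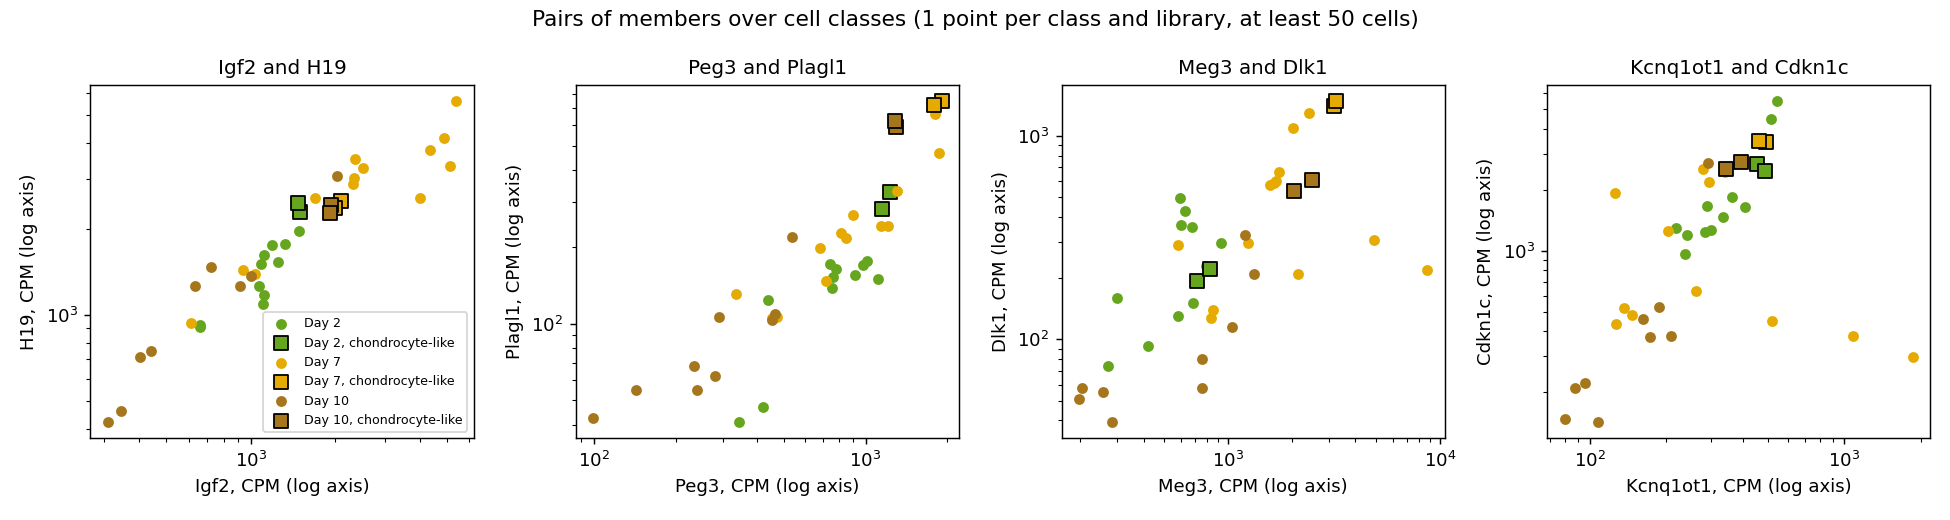
CPM (log axes) of 4 pairs of members, with 1 point per cell class and library of at least 50 cells, colored by day, and chondrocyte-like cells as squares. *Igf2* with *H19* and *Peg3* with *Plagl1* lie near a line (r = 0.95 and 0.89), and *Meg3* with *Dlk1* and *Kcnq1ot1* with *Cdkn1c* are more scattered (r = 0.70 and 0.48).

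Of 59 other imprinted genes in the matrices, 54 passed the filter in whole cultures. On Day 7 against Day 2, 26 were higher, 18 lower and 10 not called (median log2 fold change 0.11), where 35.7% of all genes were higher and 34.6% lower. On Day 10 against Day 7 they were 14, 24 and 16 (-0.25), where 26.3% and 25.9% of genes were, and on Day 10 against Day 2 they were 23, 22 and 9 (0.02), where 39.0% and 38.2% were, so the last counts are near the background. *Nnat*, which encodes neuronatin, went from 178 and 158 CPM on Day 2 to 5.25 and 5.27 on Day 7 and 2.33 and 2.07 on Day 10. *Asb4*, a subunit of ubiquitin ligases, went from 71.1 and 69.4 to 15.8 and 14.4 and to 4.68 and 4.59, and *Phlda2*, a growth restraining gene of the placenta, from 18.6 and 18.2 to 3.20 and 3.06 on Day 10. *Dcn*, which encodes the small proteoglycan decorin, went from 4.30 and 4.50 to 132 and 141 and to 72.0 and 75.3. *Zim1*, next to *Peg3*, had the Day 7 peak of the members at 17.2 and 21.4, 134 and 129, and 59.8 and 60.8 CPM, as had *Magel2* (2.14 and 2.13, 10.9 and 9.69, and 3.24 and 3.07). *Usp29* fell by 1.70 from Day 7 to Day 10, and *Pon2*, *Pon3* and *Snrpn* rose by 0.77, 0.71 and 0.74 at that step. In the shorter list of 7 genes of the imprinted growth network, 5 were higher and 2 lower on Day 7 than on Day 2, against the same background. On Day 10 against Day 7, 1 was higher, 4 lower and 2 not called (median -0.61). On Day 10 against Day 2 they were 2, 2 and 3 (0.02). *Sgce* rose at both steps (0.52 and 0.32) and was the 1 gene higher at the second.

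All 15 genes of the insulin-like growth factor axis were tested, and 10 were higher and 5 lower on Day 7 against Day 2 (all genes 35.7% and 34.6%), 5 and 6 on Day 10 against Day 7 (26.3% and 25.9%), and 9 and 5 on Day 10 against Day 2 (39.0% and 38.2%). The clearance receptor *Igf2r*, imprinted itself, had the Day 7 peak of its ligand at 144 and 144, 242 and 203, and 154 and 138 CPM. The binding proteins *Igfbp3* (21.7 and 22.2, 85.4 and 86.2, 147 and 122 CPM) and *Igfbp6* (0.701 and 0.379, 7.97 and 8.09, 31.4 and 35.1) rose at both steps, *Igfbp4* rose by 0.78 after Day 7, and *Igfbp7* was 1.88 higher on Day 10 than on Day 2. *Igf2bp1*, *Igf2bp2* and *Igf2bp3*, which encode RNA-binding proteins of embryonic cells that bind *Igf2* transcripts, fell by 1.92, 0.76 and 1.32 by Day 7. *Irs1*, the substrate of the insulin and IGF1 receptors, rose by 1.67 at that step.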

How the data were processed

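scRNAseq libraries of 6 DID cultures were analysed. Per the study's methods and processing notes, the authors prepared them with the 10x Genomics 3′ kit, aligned reads to GRCm38 with STAR in Cell Ranger 6.1.2, and used Seurat 4.1.0 afterwards. The deposited matrices hold raw UMI counts per gene and barcode, 1 library each. Whether intronic reads were counted is not given in the sources used here, and overlapping genes (*Kcnq1ot1* in *Kcnq1*, *Igf2* with *Igf2os*) rely on the strand of the reads.

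From these counts, the cell filters of the study were applied per library, which in 2 libraries differed by 1 cell from the number in its methods, and UMIs were summed per library. Day was tested with edgeR 4.0.16 (filterByExpr, TMM, quasi-likelihood test, 6 libraries in 1 fit, Benjamini-Hochberg adjustment over all genes tested, threshold 0.05) in R 4.3.3. The p-values measure the spread between 2 cultures per day. Clusters were made per day from 2000 variable genes (30 components, 20 neighbours, leidenalg 0.10.2 at resolution 1), without members, other imprinted, mitochondrial and ribosomal protein genes, after centring per library. A cluster took the name of a class with 3 or more markers at a log2 fold change above 1 in at least 10% of its cells, a rule set after leading genes had been seen. Unnamed cells were 32.5% and 61.3% on Day 2, 28.1% and 11.5% on Day 7, and 45.2% and 47.3% on Day 10. Doublets were not removed. Thinning drew UMIs without replacement. Python 3.11.15, scipy 1.17.1, limma 3.58.1 and DESeq2 1.42.0 were also used.

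The members and gene lists were chosen with earlier results of these data known. Of the other lists, up to 3 genes per direction and comparison with the largest change among those called and at 5 CPM or more on a day were named. *Nespas* was not matched. The edgeR step was tested on simulated counts with known changes. Alternatives were other scalings, filters, cell selections, DESeq2, limma on equally weighted cells (log2, pseudocount 1), a replicate block and leaving out each library. Images and staining were not analysed here.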

Additional observations from a re-analysis of the deposited data

Results flagged for a closer look

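For some members the log2 fold change between days had opposite signs in the chondrocyte-like cells and in all other cells. In TMM-scaled CPM, both libraries of a day were on the same side in each set. The difference between the sets was not tested, and where a value was not called by edgeR its adjusted p is given. The share of all genes with opposite signs by this rule was not counted, so the numbers of members have no background. On Day 10 against Day 2, 39.3% of genes were called higher and 39.3% lower in the class. Outside it the shares were 37.5% and 36.8%. From Day 2 to Day 7, the log2 fold change of *Cdkn1c* was 0.88 in chondrocyte-like cells and -0.73 in the others, and that of *Mest* was -0.37 and 0.10 (the latter not called, adjusted p = 0.316). From Day 7 to Day 10 it was -0.13 (not called, adjusted p = 0.144) and 0.26 for *Mest*. From Day 2 to Day 10, the signs were opposite for 7 members, with 0.73 and -0.54 for *Igf2*, 0.35 and -0.41 for *H19*, 0.48 and -0.92 for *Peg3*, 0.39 and -2.29 for *Cdkn1c*, -0.50 and 0.37 for *Mest*, 1.36 and -0.62 for *Plagl1*, and 1.83 and -0.61 for *Dlk1*, whose value outside the class was not called (adjusted p = 0.106). The positive values of *H19* and *Cdkn1c* in the class depend on TMM scaling. Without it their Day 2 and Day 10 libraries overlapped. Mitochondrial share differed too. In CPM without TMM scaling, 3 of the 6 chondrocyte-like clusters of Day 10 had medians of 10.9% to 27.6% and *Igf2* at 2927 to 5647, against 1310.0 to 1646 in the other 3. The class on Day 2 was at 1499 and 1475 (1249 and 1219 with TMM). Members differed in direction. On Day 10, cells over 5% had 1.81 and 2.31 times the *Igf2* of cells with at most 2%. The ratio was 1.66 and 1.43 for *Mest*, 0.805 and 1.03 for *H19*, and 0.942 and 1.13 for *Peg3*. It was 0.948 and 1.48 for *Plagl1*, 0.366 and 0.384 for *Cdkn1c*, and 0.274 and 0.358 for *Dlk1*. In chondrocyte-like cells with at most 5% mitochondrial UMIs, a setting chosen after seeing the data, the Day 10 against Day 2 values were 0.43 for *Igf2*, 0.43 for *H19*, 1.92 for *Dlk1*, 0.51 for *Peg3*, 0.60 for *Cdkn1c*, -0.54 for *Mest* and 1.32 for *Plagl1*, and all 7 were called. With only 2 libraries per day, no library could be checked as standing apart from its group.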

How the results depend on the processing

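The number of members called stayed within 1.5 times its value under every alternative that was run. The share of all genes called was counted only for the main results given above, so the counts below have no background of their own. The replicate letters did not pair the cultures (correlation of the A minus B deviations between days -0.02, -0.06 and -0.01), and with the replicate block 9, 9 and 6 members were called in whole cultures, as without it. Leaving out 1 library gave 7 to 9, 9 and 6 to 7 calls in whole cultures for Day 7 against Day 2, Day 10 against Day 7 and Day 10 against Day 2, and 9 to 10, 7 to 8 and 9 in chondrocyte-like cells, where *Grb10* on Day 7 against Day 2 lost its call without Day 7 replicate B. Reversed values in whole cultures were, for Day 7 against Day 2, *Kcnq1ot1* at -0.0066 in cells with at most 5% mitochondrial UMIs, *Cdkn1c* at -0.24 with every cell weighted equally, and *Mest* at 0.10, *Kcnq1ot1* at -0.029 and *Cdkn1c* at -0.73 in cells outside the chondrocyte-like clusters, a setting chosen after seeing the data. For Day 10 against Day 2 they were *Plagl1* at -0.62 and *Dlk1* at -0.61 in the same cells, *Mest* at -0.014 with upper-quartile factors and -0.060 with equal weight (-0.062 to 0.138 when 1 library was left out, the lowest without Day 10 replicate A), and *Igf2* at 0.20 with equal weight. In chondrocyte-like cells *Kcnq1ot1* on Day 10 against Day 2, which was at 0.00, was at -0.12 with 2 times the resolution, -0.0089 without centring, -0.066 to 0.095 when 1 library was left out, below 0 without Day 2 replicate A and without Day 10 replicate B, and -0.45 in cells with at most 5% mitochondrial UMIs, the last also chosen after seeing the data. The cause was not tested. With every cell weighted equally, the falls of *Meg3* (-0.30) and *Kcnq1ot1* (-0.26) from Day 7 to Day 10 were not called, and at 0.5 times the resolution *Mest* and *Grb10* on Day 7 against Day 2 and *Kcnq1ot1* on Day 10 against Day 7 lost their calls in chondrocyte-like cells. Background RNA limits the shares of cells in Day 2 replicate B.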
